A study of Mus musculus with 48 samples.

Results

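The comparison described here is between whole jejunum of control mice at CT13 and at CT9, over all genes measured. CT stands for circadian time, the internal clock hour of an animal that sees no light, so CT9 falls late in the rest phase of a nocturnal mouse and CT13 early in its active phase. The libraries were chosen by their labels, genotype bmal1fl/fl with time 9 or 13, which gave 4 libraries at each time, 8 of the 47 libraries of the series that have a column of counts. Total counts ranged from 5942551 to 6064324 at CT9 and from 5309637 to 5802700 at CT13.

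The mice were kept in constant darkness and the tissue is jejunum, the middle stretch of the small intestine. Both groups carry floxed Bmal1 alleles and, per the labels, no deletion. Bmal1 has the gene symbol Arntl. The knockout of the series, written Bmal1iec-/-, is used below only beside the control values, with 4 libraries at CT13 and 3 at CT9. The labels name neither the driver of that deletion nor the age, sex or diet of the mice. Whether every library is a separate animal is not on the labels either, so a p-value here reflects scatter among libraries, which may be technical. That scatter was estimated within the groups of all 47 libraries in the fit, not from the 8 compared here alone. In tissue RNA, fewer cells of a type and less RNA per cell cannot be told apart.

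As background, the mammalian clock is a transcriptional loop. BMAL1 and CLOCK bind E-box sequences and raise the PER, CRY, REV-ERB and DBP genes, whose products then act back on the loop or on output genes. REV-ERB and ROR receptors compete at the Bmal1 promoter. The gut also receives daily systemic cues, among them body temperature, which rises as a mouse becomes active, glucocorticoids, which peak near that time, and food. Heat shock factor 1 raises chaperone genes on warming, and the glucocorticoid receptor raises genes such as Fkbp5 and Tsc22d3.

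Of 15646 genes tested, 523 passed between CT9 and CT13 in control (3.34% of genes tested, edgeR quasi-likelihood test, Benjamini-Hochberg adjusted p under 0.05). Of these, 288 were higher at CT13 (1.84%) and 235 lower (1.5%). At least 1.5-fold changes made up 220 of the rises (1.41%) and 150 of the falls (0.959%), and the median absolute log2 fold change of genes that passed was 0.78. The 4 libraries of one time lay wholly above the 4 of the other in 952 genes for CT13 (6.08%) and in 1012 genes for CT9 (6.47%). Of the 523, 435 showed no overlap. The median log2 fold change over all genes was -0.004.

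Among the 6 neighbouring 4-h steps of the control day this one held the most calls. The others had 54 (0.345%, CT1 to CT5), 92 (0.588%, CT5 to CT9), 238 (1.52%, CT13 to CT17), 37 (0.236%, CT17 to CT21) and 75 (0.479%, CT21 to CT1). Neighbouring steps share libraries, so these counts were not tested against each other. Of the 288 genes higher at CT13, 224 had their highest control group mean at CT13 and 55 at CT17. Of the 235 lower genes, 116 had their highest mean at CT9 and 175 their lowest at CT13. The size of the count rested on the libraries in the fit. Without control CT9 replicate 1 it was 247, without CT9 replicate 4 it was 745, and without CT9 replicate 1 and CT13 replicate 4 together it was 126. The other steps were not refitted with these control libraries left out, so whether this step still held the most calls there was not tested. Without 5 libraries of other groups whose genes departed widely from the median the count was 1391, of which 522 were among the 523.

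**Figure D1:**
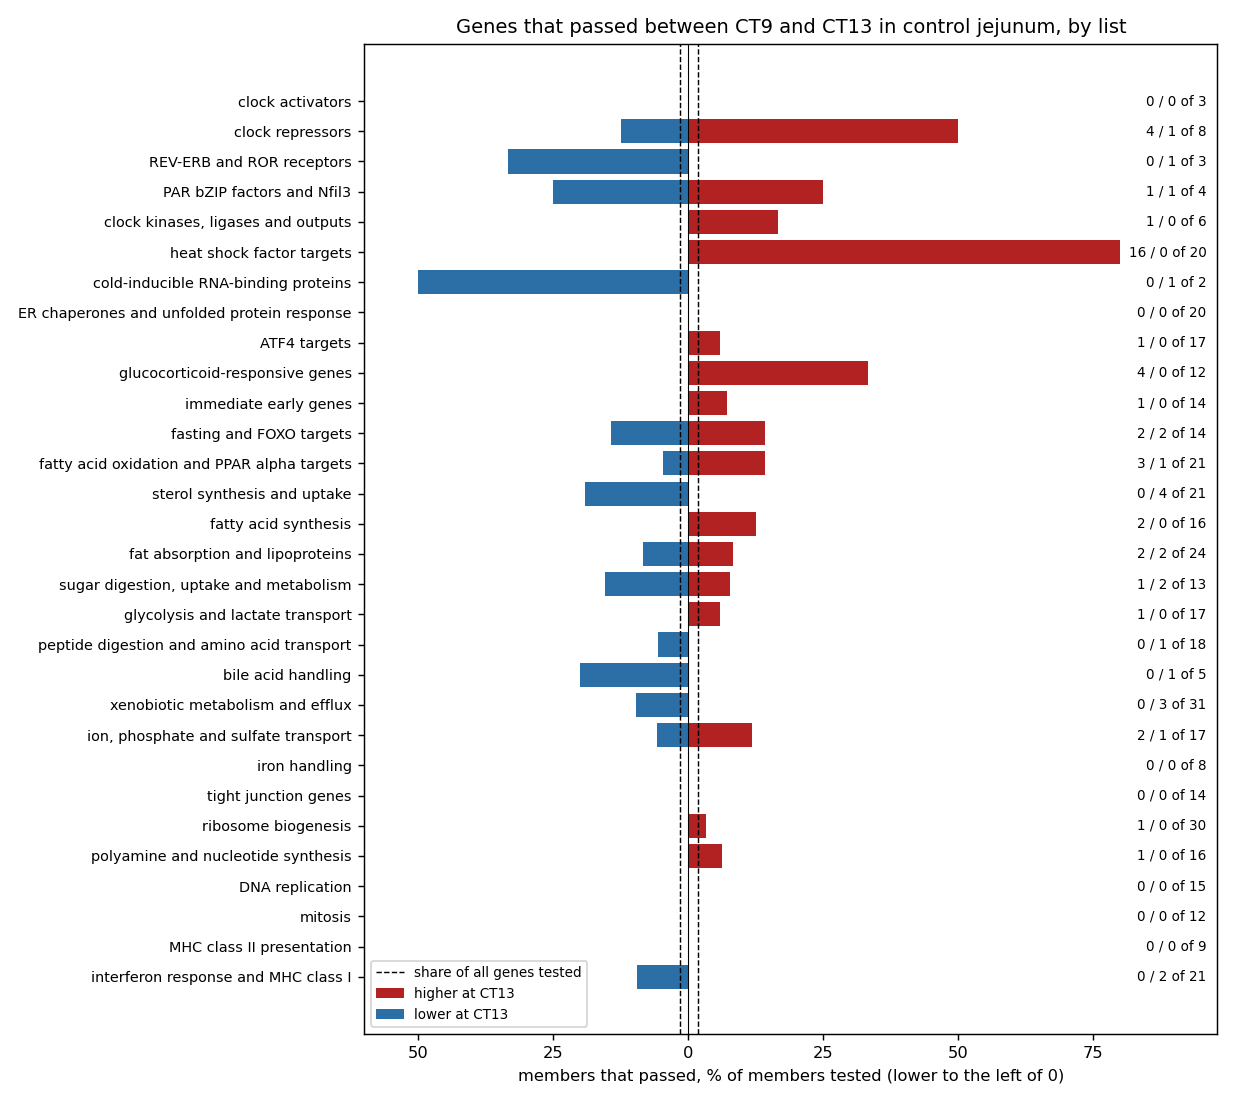
Share of the tested members of each pathway list that passed between CT9 and CT13 in control jejunum, in percent, with higher members to the right of 0 and lower members to the left. Counts at the right give higher / lower of tested, and dashed lines mark 1.84% and 1.5%, the shares over all genes tested. The heat shock list, with 16 of 20 members higher, has the longest bar.

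Clock genes changed in both directions between these times: several repressors rose while Nr1d1 and Dbp fell, and Arntl stayed near its daily low. Of 24 clock genes tested, 6 were higher, 3 lower and 15 did not pass. Of the clock genes that passed and had an entry among the promoters used, only Ciart, lower at CT13, and Cry1, higher, held the canonical E-box letters CACGTG. The promoters of both are shown. Nr1d1 and Cry2 held only the variant CACGTT, and Dbp and Hlf held neither. Capitals mark CACGTG and its variant CACGTT on either strand, and each window runs from 250 bases before to 50 after the start. Sequences are RefSeq promoters of GRCm38.p6, given 5′ to 3′ on the strand of the gene, Ciart at chr3:95882179-95882478 (minus strand) and Cry1 at chr10:85185005-85185304 (minus strand).
Ciart: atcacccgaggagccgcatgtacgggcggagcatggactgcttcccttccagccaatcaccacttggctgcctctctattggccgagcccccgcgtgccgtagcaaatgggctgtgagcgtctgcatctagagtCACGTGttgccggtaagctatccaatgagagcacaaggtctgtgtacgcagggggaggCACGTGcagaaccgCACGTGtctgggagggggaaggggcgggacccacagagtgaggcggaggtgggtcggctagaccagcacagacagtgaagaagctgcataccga
Cry1: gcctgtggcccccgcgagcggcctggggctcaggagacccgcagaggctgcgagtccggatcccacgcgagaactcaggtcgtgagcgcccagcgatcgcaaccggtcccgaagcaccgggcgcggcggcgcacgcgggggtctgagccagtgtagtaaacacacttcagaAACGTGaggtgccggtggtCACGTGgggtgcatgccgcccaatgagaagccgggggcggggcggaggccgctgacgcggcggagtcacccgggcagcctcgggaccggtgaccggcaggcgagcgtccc
Ciart held 3 CACGTG matches. Cry1 held 1 CACGTG match and 1 CACGTT match, the latter on the other strand and so printed as AACGTG. The letters CACGTG occurred in a promoter of 5 of 20 clock genes with an entry (25%), against 11.3% of genes tested and 8.09% of all genes with an entry. CACGTT occurred in 3 of the 20 (15%), against 6.21% and 5.44%. Over all genes that passed, CACGTG was in 8.5% of those higher at CT13 and 17.4% of those lower. These are matches of letters and do not show binding.

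None of the 3 activators passed. Arntl, whose protein pairs with CLOCK, held 11.3, 8.48, 11.3 and 10.6 CPM (counts scaled to a common library size) in the CT9 libraries and 13.9, 9.76, 9.93 and 12.5 CPM at CT13. The groups overlapped (log2 fold change 0.14, SE 0.16, edgeR adjusted p = 0.75), and both sat far below the control means of 75.5 CPM at CT1 and 78.4 CPM at CT21. Clock was at a mean of 91.4 CPM at both times (-0.00, SE 0.25). Npas2, a relative of Clock, stood at 19.2 ± 6.19 and 25.9 ± 7.17 CPM (SD, n = 4; log2 fold change 0.43, edgeR adjusted p = 0.153).

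Per2, a core repressor, had the largest rise among these clock genes. Its locus on mm10 is chromosome 1, positions 91415982 to 91459324, minus strand, and values are sums over its exons. It stood at 65.8, 88.1, 60.7 and 95.3 CPM in the CT9 libraries and at 231, 246, 181 and 248 CPM at CT13. Every CT13 library lay well above every CT9 library (log2 fold change 1.55, SE 0.26, edgeR adjusted p = 0.000231). CT13 was its highest time of the 6, against 11.5 CPM at CT1. Its paralogs did not pass. Per1 stood at 54.1 ± 7.6 and 52.6 ± 10.9 CPM (-0.04, SE 0.26), and Per3 at 66 ± 8.53 and 80.4 ± 10 CPM (0.28, SE 0.18), with overlapping libraries in both.

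The cryptochromes, the partners of PER, rose by less. Cry1 went from 19.1, 20, 14.1 and 27.3 CPM to 44.8, 35, 33.1 and 43 CPM. The groups did not overlap (0.95, SE 0.21, edgeR adjusted p = 0.00555), and Cry1 stayed at that level at CT17 (41.5 CPM) and CT21 (44.2 CPM). Cry2 rose from 27.4 ± 2.09 to 47.1 ± 3.29 CPM (0.78, SE 0.15, edgeR adjusted p = 0.000723).

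Bhlhe40 (DEC1), which competes with BMAL1 for E-boxes, rose with little spread. Its CT9 libraries held 86.9, 95, 77.8 and 86.9 CPM and its CT13 libraries 175, 176, 172 and 168 CPM (log2 fold change 1.00, SE 0.14, edgeR adjusted p = 1.32e-05). A pair of E-box repressors went the other way. Ciart (CHRONO) fell from 14.3, 14.8, 12.6 and 11.6 CPM to 6.95, 7.1, 5.75 and 2.51 CPM, without overlap (-1.25, SE 0.28, edgeR adjusted p = 0.00575). Bhlhe41 (DEC2) was lower in every CT13 library, 3.11 ± 0.877 against 1.52 ± 0.207 CPM, but did not pass (-1.02, SE 0.33, adjusted p = 0.0767). It passed without control CT9 replicate 4.

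Of the nuclear receptors that act at the Bmal1 promoter, Nr1d1 (REV-ERBα), a repressor, fell from 192, 111, 119 and 117 CPM to 45.2, 44.9, 29.3 and 30.1 CPM. CT9 replicate 1 was the highest, and no libraries overlapped (-1.85, SE 0.19, edgeR adjusted p = 6.43e-09). The exons of Nr1d1 overlap those of Thra on the other strand, and the strand setting of the counting is not given in the sources used here. Thra was lower too, by -0.69 on the log2 scale. Its paralog Nr1d2 was lower in every CT13 library, 148 ± 9.38 against 98 ± 14.4 CPM, and did not pass (-0.59, SE 0.21, edgeR adjusted p = 0.122). Rora, an activator at the same sites, stood at 8.07 ± 2.02 and 9.54 ± 1.98 CPM and did not pass (0.24, SE 0.28).

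Among the output factors of the PAR bZIP family, which bind D-box sequences, Dbp fell from 98.2, 80.8, 72.7 and 57.2 CPM to 32.8, 26.8, 31.5 and 17 CPM. Every CT13 library was lower (-1.51, SE 0.19, edgeR adjusted p = 1.04e-06). Tef did not pass (193 ± 18.9 and 194 ± 15.5 CPM, 0.01, SE 0.12). Hlf rose from 29.4 ± 4.99 to 46.3 ± 6.56 CPM without overlap (0.65, SE 0.19, edgeR adjusted p = 0.0408), but this call ended without any 1 of CT13 replicates 1, 3 or 4 or CT9 replicates 1, 3 or 4 (adjusted p 0.0586 to 0.219). Nfil3, their antagonist, stood at 4.79 ± 1.39 and 5.04 ± 1.85 CPM (0.08, SE 0.28).

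Of the 6 kinases, ubiquitin ligases and outputs, Wee1, a kinase that holds cells before mitosis, was the only one to pass. It rose from 28.7 ± 3.59 to 44.1 ± 3.87 CPM (0.62, SE 0.14, edgeR adjusted p = 0.00855), and the call ended without CT9 replicate 1 (0.0538) or CT9 replicate 3 (0.0596). The log2 fold changes of Csnk1d, Csnk1e, Fbxl21, Usp2 and Nampt ran from -0.31 to 0.22 and did not pass.

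**Figure D2:**
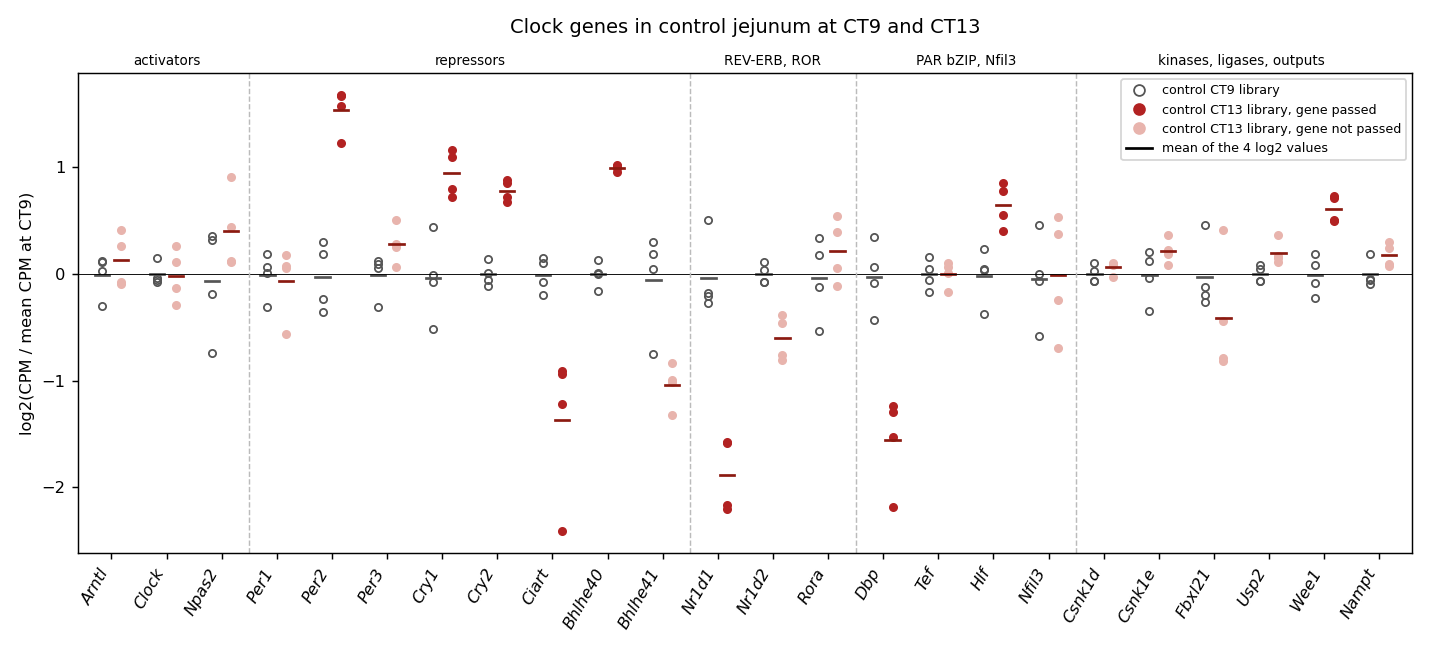
Level of 24 clock genes in each control library, as log2 of CPM over the gene's mean CPM at CT9, grouped by role. Open points are CT9 libraries, filled points CT13 libraries (pale where the gene did not pass) and bars the mean of the 4 log2 values. Per2, Cry1, Cry2, Bhlhe40, Hlf and Wee1 lie above their CT9 libraries, and Ciart, Nr1d1 and Dbp below.

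Heat shock genes rose together. Of 20 heat shock factor targets tested, 16 were higher at CT13 and 0 lower, all 20 log2 fold changes were above 0, and their median was 0.87, against -0.004 over all genes. These genes encode the chaperones HSP70, HSP90, HSP110 and HSP60 with their cofactors. Promoters of Hsph1, Chordc1 and Hspa1b are shown because each carries the paired nGAAn units that heat shock factor binds. Capitals mark GAANNTTC and TTCNNGAA, both read on either strand, and some matches overlap. Hsph1 has 2 entries, of which 1 is shown. Sequences are RefSeq promoters of GRCm38.p6 on the strand of the gene, Hsph1 at chr5:149636287-149636586 (minus strand), Chordc1 at chr9:18292017-18292316 (plus strand) and Hspa1b at chr17:34959189-34959488 (minus strand).
Hsph1: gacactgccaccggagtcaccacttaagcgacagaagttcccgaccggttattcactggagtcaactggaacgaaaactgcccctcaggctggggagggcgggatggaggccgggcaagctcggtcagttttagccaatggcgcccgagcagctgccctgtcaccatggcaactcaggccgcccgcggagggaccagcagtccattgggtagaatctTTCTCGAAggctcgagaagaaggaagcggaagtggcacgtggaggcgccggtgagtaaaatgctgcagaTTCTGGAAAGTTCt
Chordc1: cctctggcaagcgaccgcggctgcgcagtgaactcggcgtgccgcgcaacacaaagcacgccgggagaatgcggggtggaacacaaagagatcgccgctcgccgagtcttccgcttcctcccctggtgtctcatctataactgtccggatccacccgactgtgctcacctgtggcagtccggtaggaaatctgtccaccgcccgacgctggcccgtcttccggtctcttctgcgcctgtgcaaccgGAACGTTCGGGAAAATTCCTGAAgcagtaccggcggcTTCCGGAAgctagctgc
Hspa1b: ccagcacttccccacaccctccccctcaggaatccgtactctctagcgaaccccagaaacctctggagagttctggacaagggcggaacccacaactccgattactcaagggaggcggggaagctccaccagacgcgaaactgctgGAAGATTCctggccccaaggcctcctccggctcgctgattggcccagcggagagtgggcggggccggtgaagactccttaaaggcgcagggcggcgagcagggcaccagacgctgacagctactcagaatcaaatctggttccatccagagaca
GAANNTTC occurred in a promoter of 10 of 16 heat shock list genes with an entry (62.5%), against 7.13% of genes tested and 9.04% of all genes with an entry. TTCNNGAA occurred in 4 of the 16 (25%), against 8.54% and 9.6%. The shares over all genes higher at CT13 were 9.5% and 10.5%, and over all genes lower 7.89% and 6.32%.

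Hspa1a, an inducible HSP70, rose from almost nothing. The CT9 libraries held 1.01, 0.679, 0.639 and 0.673 CPM and the CT13 libraries 9.03, 13.8, 3.83 and 19.1 CPM. All CT13 libraries were above all CT9 libraries, and differed widely among themselves (log2 fold change 3.89, SE 0.50, edgeR adjusted p = 1.94e-06). Its near-identical neighbour Hspa1b held 0.506, 1.53, 1.76 and 7.91 CPM at CT9 and 45.3, 59.8, 7.49 and 79.6 CPM at CT13. CT9 replicate 4 overlapped CT13 replicate 3 (4.03, SE 0.56, edgeR adjusted p = 1.28e-05). Reads may have been split between this pair or dropped, so each level is uncertain.

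Hsph1 (HSP110) showed the same pattern at a higher level. Its CT9 libraries held 30, 51.2, 33.5 and 186 CPM and its CT13 libraries 477, 482, 163 and 536 CPM. CT9 replicate 4 again stood above CT13 replicate 3, and the other 3 CT13 libraries stood above all CT9 libraries (2.46, SE 0.43, edgeR adjusted p = 0.000407). The cochaperone Stip1, which links HSP70 to HSP90, went from 66.1, 72.6, 62.6 and 112 CPM to 187, 184, 102 and 181 CPM (1.06, SE 0.17, adjusted p = 7.23e-05).

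Ahsa1, which stimulates the HSP90 ATPase, rose from 57.8 ± 9.94 to 108 ± 18.9 CPM (0.90, SE 0.16, edgeR adjusted p = 0.000407) and Cacybp, an HSP90 client adaptor, from 42.7 ± 8.85 to 77.1 ± 12.2 CPM (0.85, SE 0.15, adjusted p = 0.000406), both without overlap. Chordc1, Hsp90aa1 and Hspa8, named after their values were seen, passed too. Chordc1, an HSP90 cofactor, rose from 46.3 ± 14.5 to 107 ± 23.4 CPM (1.21, SE 0.25). Hsp90aa1, the inducible HSP90, rose from 225 ± 120 to 581 ± 175 CPM (1.37, SE 0.24). Hspa8, the constitutive HSP70, rose from 1268 ± 457 to 2683 ± 607 CPM (1.08, SE 0.20).

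The spread within each time had a pattern. Among the 16 genes that passed, CT9 replicate 4 was the highest CT9 library in 14, CT13 replicate 3 the lowest CT13 library in all 16, and the second lay below the first in 11. Only 4 of the 16 had no overlap between times. The count of 16 was 8 when only the 8 libraries of these groups were fitted, and 8 without CT9 replicate 1 and CT13 replicate 4 together. Hspb1, Bag3, Cryab and Hspa4 did not pass, with log2 fold changes of 0.13 to 0.92, and Hspb1 passed without CT13 replicate 3.

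**Figure D3:**
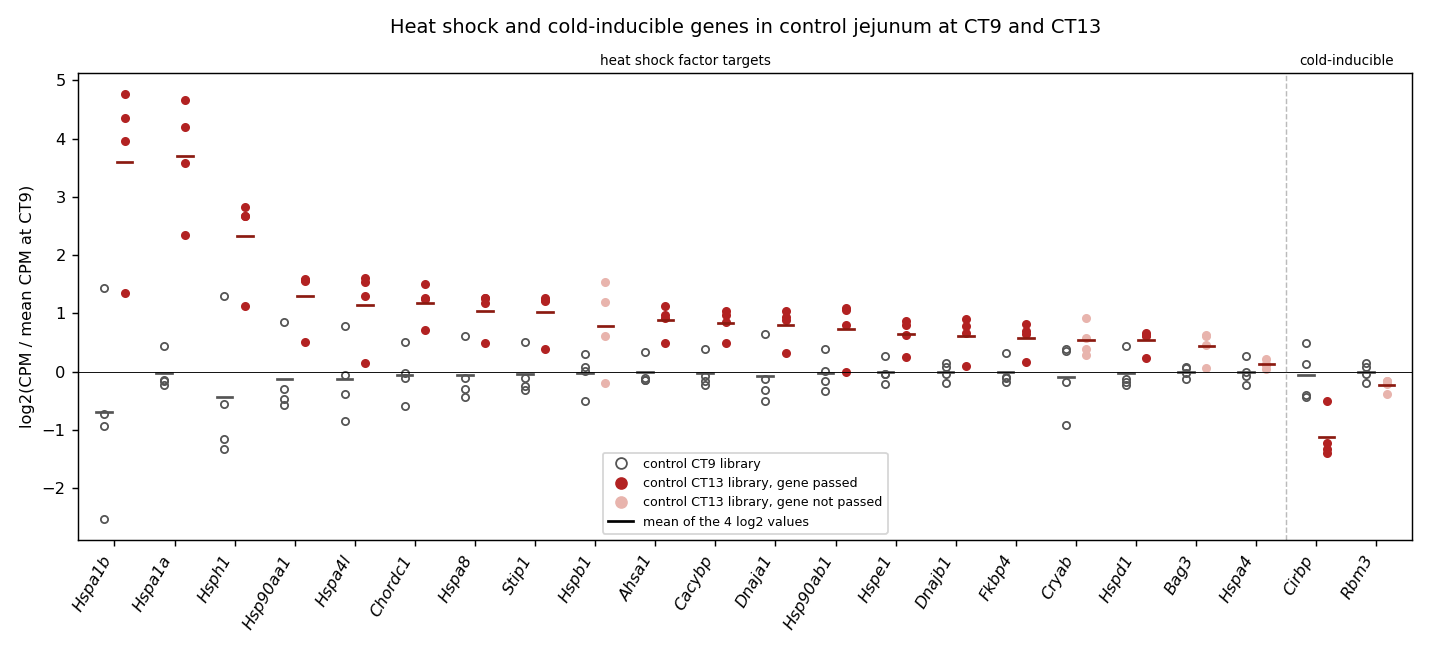
Level of the 20 heat shock factor targets and 2 cold-inducible genes in each control library, as log2 of CPM over the gene's mean CPM at CT9. Open points are CT9 libraries, filled points CT13 libraries (pale where the gene did not pass) and bars the mean of the 4 log2 values. CT13 points lie above most CT9 points in the heat shock genes and below them in Cirbp.

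The cold-inducible RNA-binding protein gene Cirbp went the opposite way. It held 48.9, 26.1, 37.8 and 25.6 CPM at CT9 and 13.7, 13.1, 24.4 and 14.8 CPM at CT13, without overlap (-1.07, SE 0.28, edgeR adjusted p = 0.0241). The gap between the lowest CT9 and the highest CT13 library was small. The call ended without any 1 of CT13 replicates 1, 2 or 4 or CT9 replicates 1 or 3 (adjusted p 0.0651 to 0.142). Rbm3, its relative, stood at 160 ± 16.3 and 137 ± 9.97 CPM and did not pass (-0.23, SE 0.14).

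Chaperones of the endoplasmic reticulum, which answer to misfolded secretory proteins, had 0 of 20 members passing, with a median of 0.21. Of the 20, 17 were above 0 and 7 had an unadjusted edgeR p under 0.05. In knockout 1 of them passed as higher. Hspa5 (BiP) held 566, 652, 538 and 1220 CPM at CT9 and 1044, 1187, 786 and 1089 CPM at CT13. The single high CT9 library was again replicate 4 (0.46, SE 0.19, edgeR adjusted p = 0.197), and Hspa5 passed without it. Of 17 targets of the stress factor ATF4, 1 passed, Ddit4.

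Glucocorticoid-responsive genes split into a few large rises and changes in both directions that did not pass. Of 12 tested, 4 were higher, 0 lower, and the median log2 fold change was 0.35. In all, 8 were above 0 and 4 below, down to -0.63. Fkbp5, a cochaperone that restrains the glucocorticoid receptor, held 23.1, 26, 16.1 and 57.7 CPM at CT9 and 267, 252, 166 and 325 CPM at CT13. The groups were far apart (3.04, SE 0.37, edgeR adjusted p = 1.7e-06), and every other control time had a mean of 40.9 CPM or less. Tsc22d3 (GILZ), an anti-inflammatory mediator, held 53.7, 74.7, 57.8 and 70.2 CPM at CT9 and 218, 198, 149 and 241 CPM at CT13. It too had no overlap (1.65, SE 0.17, edgeR adjusted p = 6.43e-09).

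Zbtb16 (PLZF), a transcription factor, held 0.506, 3.73, 1.12 and 6.23 CPM at CT9 and 28.8, 21.3, 8.36 and 27.2 CPM at CT13 (2.88, SE 0.57, edgeR adjusted p = 0.00147). Sgk1, a kinase that raises sodium transport, held 54.8, 244, 113 and 210 CPM at CT9 and 492, 506, 633 and 765 CPM at CT13 (1.95, SE 0.44, adjusted p = 0.00643). Both rose without overlap, from CT9 libraries that themselves differed several-fold. Fitted on the 8 libraries alone, 2 of the 4 genes passed, with Sgk1 and Zbtb16 lost. Per1, Cdkn1a and Errfi1 (-0.04, 0.37 and 0.34) did not pass, although each can respond to glucocorticoids.

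Of 14 immediate early genes, which answer to growth and stress signals, 1 passed. Fosb rose from 0.337, 2.04, 0.799 and 2.19 CPM to 5.9, 9.76, 9.23 and 13.5 CPM, without overlap (2.82, SE 0.56, edgeR adjusted p = 0.00147). Fos itself stood at a mean of 97.1 and 180 CPM and did not pass (0.89, adjusted p = 0.0965). Hbegf, a ligand of the EGF receptor, rose from 7.42, 27.8, 8.14 and 17 CPM to 30.2, 46.5, 70.2 and 71.1 CPM (1.85, SE 0.31, adjusted p = 0.00023).

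G6pc, Pck1, Pdk4 and Angptl4, which act in glucose output and fuel choice, rose, while most members of their lists did not pass. Higher were 1 of 13 sugar genes, 2 of 14 fasting targets and 3 of 21 fatty acid oxidation genes, against 1.84% of all genes tested. G6pc, the last enzyme of gluconeogenesis, held 7.26, 16.6, 11.5 and 30.8 CPM at CT9 and 165, 138, 138 and 151 CPM at CT13. The CT13 libraries were tight and far above (3.16, SE 0.27, edgeR adjusted p = 6.58e-11), and CT9 was the lowest of the 6 control times. Pck1, which makes phosphoenolpyruvate, held 163, 361, 266 and 215 CPM at CT9 and 673, 792, 855 and 1115 CPM at CT13, without overlap (1.77, SE 0.37, adjusted p = 0.003).

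Pdk4, which shuts pyruvate out of oxidation, held 6.92, 15.3, 9.1 and 28.4 CPM at CT9 and 101, 52, 66 and 113 CPM at CT13 (2.47, SE 0.58, edgeR adjusted p = 0.00948). Angptl4, an inhibitor of lipoprotein lipase, held 2.36, 15.4, 7.51 and 26.1 CPM at CT9 and 68.3, 62.5, 39.2 and 153 CPM at CT13 (2.65, SE 0.58, adjusted p = 0.00502). Neither gene overlapped between times. The call of Pdk4 ended without CT9 replicate 1 (0.0627), and that of Angptl4 when only the 8 libraries of these groups were fitted. Both calls ended without CT9 replicate 1 and CT13 replicate 4 together. In Zbtb16, Angptl4, Pdk4 and G6pc the highest CT9 library was replicate 4, as in the heat shock genes.

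Of 14 fasting and FOXO targets, 2 were higher, Pck1 and Ddit4, and 2 lower. Ddit4, an inhibitor of mTORC1, rose from 12.7 ± 1.61 to 23.5 ± 4.8 CPM (0.88, SE 0.22, edgeR adjusted p = 0.013) and was lost without CT13 replicate 2 (0.0507) or 4 (0.0608). Irs2, an adaptor of the insulin receptor, fell from 41.5 ± 14.7 to 19 ± 6.69 CPM (-1.13, SE 0.32, adjusted p = 0.0392). Cited2 fell from 47.5 ± 11.7 to 31 ± 5.2 CPM (-0.61, SE 0.18, adjusted p = 0.0421). Irs2 did not pass without CT13 replicates 2, 3 or 4 or CT9 replicates 1 or 3 (0.076 to 0.222), nor Cited2 without CT13 replicates 2, 3 or 4 or CT9 replicate 1 (0.0782 to 0.272).

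Of 21 genes for burning fatty acids or raised by PPARα, the receptor active in fasting, 3 were higher, 1 lower, and the median was -0.05. Pdk4 and Angptl4 were 2 of the 3. The carnitine carrier Slc25a20 rose from 44.1 ± 5.9 to 68.5 ± 3.87 CPM (0.64, SE 0.17, edgeR adjusted p = 0.0198), whereas Cpt1a, the gate of mitochondrial uptake, fell from 145 ± 10.6 to 100 ± 13.2 CPM (-0.53, SE 0.13, adjusted p = 0.0111). Slc25a20 was lost without CT13 replicate 1 or CT9 replicates 1 or 3 (0.0662 to 0.0898), and Cpt1a without CT13 replicates 2 or 4 or CT9 replicate 3 (0.0593 to 0.0734). Without CT9 replicate 1, 1 of this list was higher. Hadha and Hadhb, of the mitochondrial trifunctional protein, did not pass (-0.16 and -0.08).

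In fat absorption the last step of triglyceride synthesis stood out. Dgat2 held 378, 516, 315 and 473 CPM at CT9 and 966, 1304, 935 and 1175 CPM at CT13. Every CT13 library was higher (1.38, SE 0.19, edgeR adjusted p = 6.48e-06), while Dgat1, the other enzyme of that step, stood at means of 831 and 799 CPM (-0.06). Of 24 genes in this list, 2 were higher and 2 lower. Apoc2 rose at a low level, 0.504 ± 0.458 to 1.92 ± 1.12 CPM (1.88, SE 0.54, adjusted p = 0.0402), with overlap.

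The sterol exporters of the brush border fell. Abcg5 went from 334 ± 38 to 225 ± 44.2 CPM (-0.57, SE 0.15, edgeR adjusted p = 0.0218) and Abcg8 from 256 ± 61.2 to 161 ± 43.4 CPM (-0.66, SE 0.19, adjusted p = 0.035). Their exons overlap on opposite strands. The call of Apoc2 was lost without CT13 replicates 2 or 4 or CT9 replicates 1, 2 or 3 (0.085 to 0.212), and that of Abcg5 without CT13 replicates 1, 2 or 4 or CT9 replicate 1 (0.0571 to 0.125). That of Abcg8 was lost without CT13 replicates 2 or 4 or CT9 replicates 1, 2 or 3 (0.0566 to 0.219). Apob, Apoa1 and Fabp2, abundant enterocyte genes of chylomicron assembly and fatty acid binding, did not pass (0.16, 0.58 and 0.47).

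Sterol synthesis leaned lower, with 4 of 21 genes lower, 0 higher and a median of -0.24. Hmgcs1, which makes the HMG-CoA of the pathway, held 134, 148, 138 and 138 CPM at CT9 and 83.5, 79, 98 and 99.8 CPM at CT13 (-0.63, SE 0.15, edgeR adjusted p = 0.00914). Fdft1, Stard4 and Sqle fell by 0.74, 0.71 and 0.57 on the log2 scale, also without overlap. Fdft1 did not pass without CT13 replicate 1 (0.0874), Stard4 without CT13 replicate 2 or CT9 replicate 1 (0.0543 and 0.071), and Sqle without CT13 replicates 1 or 2 or CT9 replicates 1, 2 or 3 (0.0596 to 0.161). The 4 were 2 without CT13 replicate 1, CT13 replicate 2 or CT9 replicate 1.

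Fatty acid synthesis had 2 of 16 genes higher, and both rested on 1 library. Fasn held 68.7, 96.4, 99 and 73.9 CPM at CT9 and 74.2, 695, 121 and 71.7 CPM at CT13. Only CT13 replicate 2 was high (1.51, SE 0.43, edgeR adjusted p = 0.0411). The same library had the highest Acaca (153 CPM, against 26.6 to 43.7 CPM in the other 7) and Scd1 (1337 CPM, against 196 CPM or less), and the fat cell genes Adipoq (72.6 CPM), Cfd (320 CPM) and Fabp4 (243 CPM). The summed level of 7 adipocyte markers was 936 CPM there, 120 to 235 CPM in the other CT13 libraries and 66.8 to 134 CPM at CT9. Without this library neither Fasn nor Acaca passed (0.96 and 0.854). Both calls also ended without any 1 of the 4 CT9 libraries, Fasn with adjusted p of 0.0724 or more and Acaca with 0.059 or more.

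Dgat2 and the lipid droplet gene Cidec, which is also a fat cell marker, kept their calls without that library. Cidec held 50.1, 68.6, 31 and 79.6 CPM at CT9 and 91.5, 194, 124 and 140 CPM at CT13, without overlap (1.26, SE 0.27, edgeR adjusted p = 0.00435). It was the only one of 7 adipocyte markers to pass. G0s2, an inhibitor of triglyceride breakdown, held 0.844, 2.04, 1.44 and 0.842 CPM at CT9 and 2.78, 11.7, 3.48 and 2.7 CPM at CT13. It rose without overlap (1.99, SE 0.42, adjusted p = 0.00272), but did not pass without CT13 replicate 2 (0.113).

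A pair of hexose carriers fell. Slc2a5 (GLUT5), the fructose transporter, held 237, 208, 182 and 157 CPM at CT9 and 111, 117, 106 and 91.5 CPM at CT13, without overlap (-0.88, SE 0.17, edgeR adjusted p = 0.00109). Slc2a7 (GLUT7) held 105, 96.6, 79.9 and 71.7 CPM at CT9 and 48.3, 50.2, 54 and 52 CPM at CT13 (-0.79, SE 0.17, adjusted p = 0.00359).

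The abundant sucrase Sis, maltase Mgam and sodium-glucose carrier Slc5a1 (SGLT1) did not pass (-0.43, -0.09 and -0.22). In all, 1 of 13 sugar genes was higher, G6pc, and 2 lower. Of 17 genes of glycolysis, Pgk1 was the only one to pass, from 316 ± 35.1 to 478 ± 33.3 CPM (0.60, SE 0.11, edgeR adjusted p = 0.000688). The median of that list was 0.27.

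Amino acid and bile acid genes had 1 call each. Slc36a1 (PAT1), a proton-coupled carrier of small amino acids, held 536, 676, 500 and 477 CPM at CT9 and 248, 345, 330 and 236 CPM at CT13 (-0.91, SE 0.19, edgeR adjusted p = 0.00196). It was the only one of 18 genes of peptide digestion and amino acid transport to pass, and the peptidases Anpep and Enpep had values of -0.38 and -0.01. Of 5 bile acid genes, the basolateral pump Abcc3 passed, from 95.7 ± 9.35 to 52 ± 1.82 CPM (-0.88, SE 0.26, adjusted p = 0.0494). Its call ended without any 1 of the 4 CT13 libraries or CT9 replicates 1, 2 or 3 (0.0752 to 0.125), and under RLE or upper quartile scaling.

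Of 31 genes of xenobiotic metabolism and efflux, 0 were higher and 3 lower. Cyp2c55, a cytochrome P450, held 108, 128, 134 and 266 CPM at CT9 and 16.2, 14.7, 63.4 and 26.2 CPM at CT13. No library overlapped (-2.40, SE 0.45, edgeR adjusted p = 0.00106). It was the largest fall among the protein-coding genes ranked by the rule given with the methods. Its call ended when only the 8 libraries of these groups were fitted (edgeR adjusted p = 0.0762). Abcg2 (BCRP), an efflux pump, fell from 152 ± 13.1 to 100 ± 10.6 CPM (-0.60, SE 0.11, adjusted p = 0.000517).

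Abcc2 (MRP2), another pump, fell from 866 ± 211 to 443 ± 123 CPM (-0.97, SE 0.28, edgeR adjusted p = 0.0445). That call was lost without CT13 replicates 1, 2 or 4 or CT9 replicates 1, 2 or 3 (0.073 to 0.216). Cyp3a11, Cyp3a13 and Ces2e stayed within 0.23 of no change. By contrast Ces1d, a carboxylesterase outside these lists, rose from 18.9, 22.4, 22.4 and 21.4 CPM to 132, 134, 113 and 111 CPM. Both groups were tight (2.53, SE 0.26, edgeR adjusted p = 7.15e-09), and Ces1d was higher again at CT17, at 171 CPM.

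Sult6b2, a sulfotransferase, rose from 12.7, 27.1, 16.3 and 32.3 CPM to 111, 125, 100 and 131 CPM (2.40, SE 0.38, edgeR adjusted p = 0.000122). CT13 was its highest time, and at CT1 it stood at 1.46 CPM. Bco1, which cleaves beta-carotene to retinal, rose from 28.3, 58, 42.5 and 37 CPM to 222, 194, 179 and 187 CPM (2.24, SE 0.42, adjusted p = 0.00106). Tppp, a tubulin-binding protein, rose from 11.5, 22.2, 15.3 and 43.9 CPM to 117, 97.6, 93.9 and 158 CPM (2.33, SE 0.45, adjusted p = 0.00123). None of these 3 genes overlapped between times.

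Of 17 ion, phosphate and sulfate genes, 2 were higher and 1 lower. Slc34a2 (NaPi-IIb), the apical phosphate carrier, held 46.6, 38.2, 29.5 and 55 CPM at CT9 and 9.2, 8.69, 16.2 and 27.9 CPM at CT13. All CT13 libraries were lower (-1.45, SE 0.30, edgeR adjusted p = 0.00196). Both times were low in its day, since it stood at 516 CPM at CT1 and 400 CPM at CT21. The call of Slc34a2 ended when only the 8 libraries of these groups were fitted (edgeR adjusted p = 0.101).

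Guca2b (uroguanylin), a peptide that drives chloride secretion, rose from 764 ± 91.4 to 1456 ± 209 CPM (0.93, SE 0.23, edgeR adjusted p = 0.0122), and Slc13a1, a sulfate carrier, from 78.8 ± 20.7 to 152 ± 24.3 CPM (0.95, SE 0.27, adjusted p = 0.0355). Guca2b was lost without CT9 replicate 3 (0.0568), and Slc13a1 without CT13 replicates 1, 3 or 4 or CT9 replicates 1, 3 or 4 (0.0545 to 0.179). The sodium pump subunit Atp1b1 did not pass (-0.15). Of 8 iron genes and 14 tight junction genes, 0 passed, with medians of -0.05 and -0.08.

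Several genes of defence and cytokine signalling were among the largest falls. In whole jejunum the cells in which they fell cannot be told. Socs3, the feedback inhibitor of STAT3 signalling, held 114, 120, 77.6 and 44.3 CPM at CT9 and 18.8, 25.2, 21.1 and 17.3 CPM at CT13. CT9 replicate 4 was the lowest of its group and still above all CT13 libraries (-2.11, SE 0.27, edgeR adjusted p = 2.92e-06). Pim1, a kinase gene raised by STAT factors, held 98.4, 66.5, 74.4 and 59.1 CPM at CT9 and 31.6, 27.5, 30.3 and 30.8 CPM at CT13 (-1.31, SE 0.18, adjusted p = 5.01e-06). Il33, an alarmin cytokine, held 47.8, 60.1, 39.8 and 49.5 CPM at CT9 and 19.1, 20.8, 24.6 and 19.5 CPM at CT13 (-1.23, SE 0.21, adjusted p = 0.00023).

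Tifa, an adaptor in sensing of bacterial sugars, fell from 138 ± 50.9 to 42.4 ± 11.3 CPM (-1.70, SE 0.41, edgeR adjusted p = 0.0128). Casp4 (caspase-11), the sensor of cytosolic lipopolysaccharide, fell from 46 ± 7.08 to 18 ± 1.79 CPM (-1.35, SE 0.34, adjusted p = 0.0175). Ptk6, an epithelial kinase, fell from 65.8 ± 22.1 to 29 ± 9.54 CPM (-1.18, SE 0.31, adjusted p = 0.0241), and Il18rap, a subunit of the IL-18 receptor, from 5.5 ± 2.76 to 2.18 ± 0.308 CPM (-1.32, SE 0.32, adjusted p = 0.0124). All 4 were without overlap. Tifa did not pass without CT13 replicate 4 or CT9 replicate 2 (0.0638 and 0.0645), nor Casp4 without CT13 replicates 1 or 4 or CT9 replicate 1 (0.0536 to 0.061). Ptk6 did not pass without CT13 replicates 1 or 4 or CT9 replicate 2 (0.0886 to 0.123), nor Il18rap without CT13 replicate 4 or CT9 replicates 1 or 3 (0.0527 to 0.101).

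All 21 genes of the interferon and MHC class I list had a log2 fold change below 0 (median -0.41), and 2 passed as lower. All 12 T cell markers (median -0.43) and all 10 B and plasma cell markers (median -1.27) were below 0 too, and none of either passed. Of 11 myeloid and mast cell markers, 5 were above 0 and 6 below (median -0.15). The B cell values rested on single libraries: over the alternatives Ms4a1 ran from -4.98 to 2.02 and Cr2 from -4.93 to 1.2. The part of immune cells in the values of the interferon list was not tested. Ubd, a ubiquitin-like modifier, held 46.7, 65.8, 58.3 and 2.69 CPM at CT9 and 1.74, 7.1, 1.92 and 4.24 CPM at CT13. CT9 replicate 4 lay among the CT13 libraries (-3.53, SE 0.88, edgeR adjusted p = 0.0168). Tap1, a peptide carrier of class I loading, fell by 1.00 on the log2 scale, from 99.5 ± 47.2 to 49.6 ± 12.7 CPM with overlap (SE 0.26, adjusted p = 0.0223).

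Ubd did not pass without CT13 replicates 1, 3 or 4 (0.0512 to 0.0666), nor Tap1 without CT13 replicates 1, 3 or 4 or CT9 replicates 1 or 3 (0.0582 to 0.18). Of 9 MHC class II genes, 0 passed, all 9 were below 0, and the median was -0.93. H2-Aa held 889, 577, 726 and 199 CPM at CT9 and 210, 392, 211 and 227 CPM at CT13 (-1.20, SE 0.37, edgeR adjusted p = 0.0649). The low CT9 library was replicate 4, and H2-Aa passed without it, as it did without CT13 replicate 2.

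Growth and division lists had at most 1 call each, where 3.34% of all genes tested passed. Such counts do not set these genes apart from all genes. Of 15 DNA replication genes and 12 mitosis genes, 0 passed, with medians of 0.00 and -0.14, and Mki67, a marker of dividing cells, stood at means of 227 and 209 CPM (-0.12). Of 30 ribosome biogenesis genes, 27 were above 0 and 1 passed, Nop2, a methyltransferase of ribosomal RNA, from 37 ± 6.79 to 55.6 ± 8.47 CPM (0.59, SE 0.16, edgeR adjusted p = 0.0332). Of 16 polyamine and nucleotide genes, Odc1, the first enzyme of polyamine synthesis, passed, from 178 ± 49 to 276 ± 41.5 CPM (0.63, SE 0.16, adjusted p = 0.0161). Each of these 2 calls was lost without CT13 replicates 2 or 4 or CT9 replicates 1 or 3 (0.0988 to 0.139 for Nop2 and 0.0543 to 0.12 for Odc1).

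Markers of other cells that a piece of jejunum can hold were summed in each library, and apart from Cidec no marker in 15 lists passed. Enterocyte markers, among them Fabp2 and Apoa1, summed to 31235 to 40203 CPM at CT9 and 40141 to 42726 CPM at CT13, which matches the tissue on the label. Stem and crypt cells ranged from 1023 to 1341 and 972 to 1233 CPM, smooth muscle from 1318 to 2370 and 2113 to 2858 CPM, T cells from 178 to 507 and 225 to 379 CPM, and B and plasma cells from 3460 to 5870 and 3384 to 4828 CPM. Red blood cell markers were 9.43 to 23.8 CPM at CT9 and 22 to 52.6 CPM at CT13. The lowest T cell sum, in CT9 replicate 4, was in the library where Ubd and H2-Aa were low, and its part in those results was not tested.

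B cell genes stood apart in 2 libraries. Ms4a1 (CD20) held 37.1 CPM in CT9 replicate 1 and 15.2 CPM in CT13 replicate 4, and at most 1.02 CPM in the other 6. Cr2, of follicular cells, held 28.2 and 9.44 CPM in these libraries. Leaving out both left 126 calls, 79 higher and 47 lower, of which 125 were among the 523. The fat signal of CT13 replicate 2 is given above. Of the genes named above as passing, Per2, Cry2, Bhlhe40, Nr1d1, Thra, Dbp, Hspa1a, Ahsa1, Cacybp, Fkbp5, Tsc22d3, G6pc, Pgk1, Dgat2, Hmgcs1, Slc36a1, Abcg2, Ces1d, Sult6b2, Bco1, Socs3, Pim1 and Il33 passed in all 17 alternatives run.

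**Figure D4:**
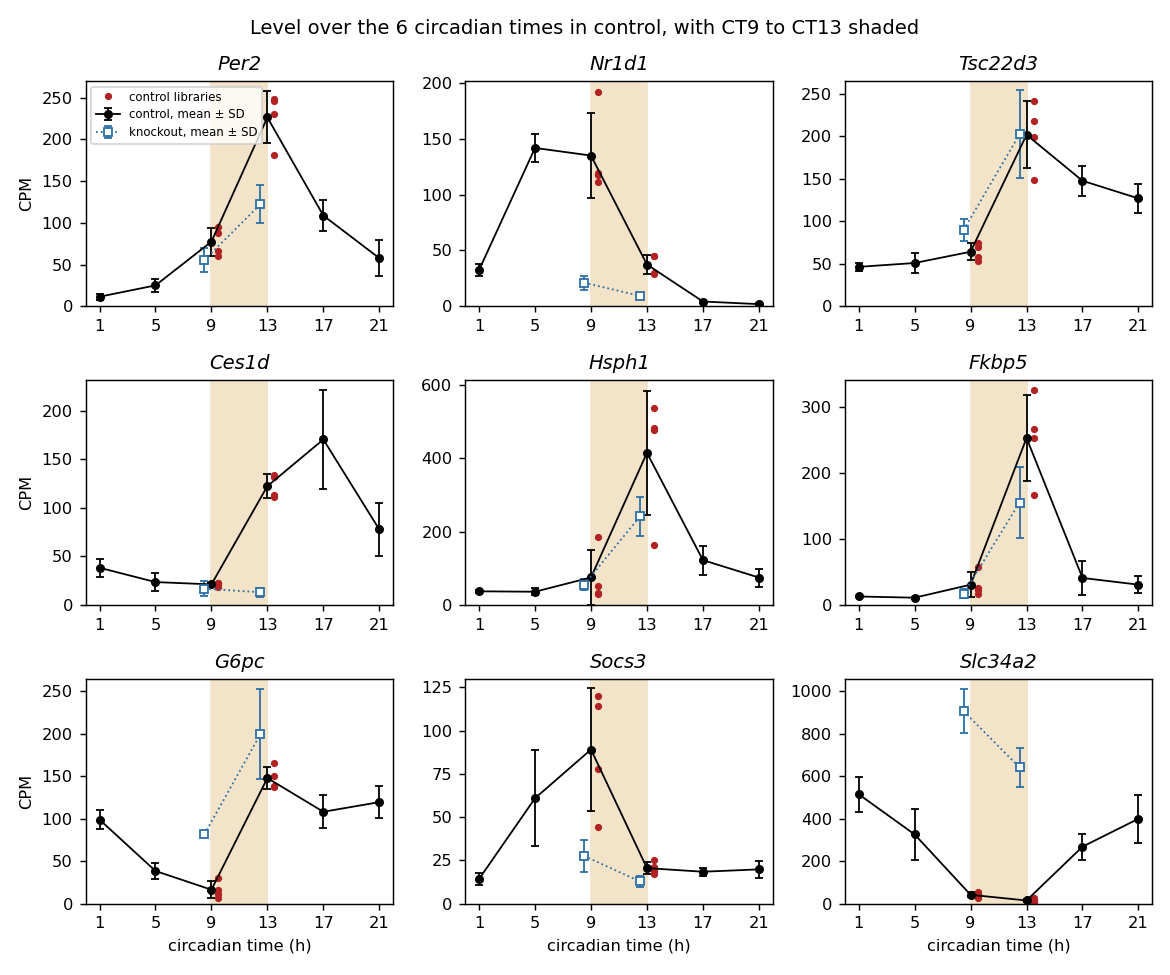
Level of 9 genes, in CPM, over the 6 circadian times in control, as mean ± SD of 4 libraries (black), with the control libraries of CT9 and CT13 as red points and the knockout means ± SD at those times as blue squares, drawn slightly to the side. The shaded band is the CT9 to CT13 step. Per2, Tsc22d3, Hsph1, Fkbp5 and G6pc have their highest control mean at CT13, Ces1d at CT17.

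The knockout tests whether the same step occurs when Bmal1 is targeted. Arntl in knockout stood at 28.2 ± 3.11 CPM at CT9 (n = 3) and 31.2 ± 3.21 CPM at CT13 (n = 4). That is above the control at these times, when control Arntl is near its daily low. At CT1 and CT21 Arntl stood at 27.3 and 30.9 CPM in knockout, against 75.5 and 78.4 CPM in control. A count over the whole gene at CT9 and CT13 therefore does not measure the deletion. In knockout 35 genes passed between CT9 and CT13 (0.224%), 29 higher (0.185%) and 6 lower (0.0383%). Of the 523 control genes, 483 had the same sign in knockout and 28 also passed there with that sign, 24 higher and 4 lower. None passed with the opposite sign.

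In knockout, 4 of 20 heat shock genes and 2 of 12 glucocorticoid-responsive genes were higher and 0 lower, against 16 and 4 higher in control. The difference of these counts was not tested. Log2 fold changes in knockout were 4.25 for Hspa1a, 2.14 for Hsph1, 3.17 for Fkbp5, 1.17 for Tsc22d3, 2.20 for Pck1 and 1.02 for Dgat2, all past the threshold. Nr1d1 also passed there (-1.19), at means of 21.2 CPM at CT9 and 9.3 CPM at CT13, below its control means of 135 and 37.3 CPM. Pdk4 (2.54, edgeR adjusted p = 0.0762), Angptl4 (1.71, 0.312) and Sgk1 (1.23, 0.426) did not pass in knockout. For none of these 10 genes did the difference between genotypes pass (edgeR adjusted p = 1), which does not show equal changes.

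The difference between genotypes itself passed for 4 of 15646 genes (0.0256%), with 634 at an unadjusted p under 0.05. All 4 rose more in control, and 3 are described here. Ces1d in knockout stayed at 16.7 ± 7.64 and 13.2 ± 4.77 CPM, near its control level of CT9 (difference 2.87, SE 0.39, edgeR adjusted p = 3.48e-05). This difference passed in every alternative run.

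G6pc rose in both genotypes, in knockout from 81.8 ± 2.97 to 200 ± 53.1 CPM (log2 fold change 1.29), and by less than in control (difference 1.87, SE 0.36, edgeR adjusted p = 0.0232). Pcp4l1, a small neuronal protein of the PCP4 family, rose in control from 21.3 ± 8.24 to 43.7 ± 7.72 CPM and was at 25.4 ± 4.76 and 16.0 ± 1.91 CPM in knockout (difference 1.70, SE 0.32, adjusted p = 0.0232). The difference of G6pc was lost without control CT13 replicates 1, 2 or 4, control CT9 replicates 1 or 3, knockout CT13 replicates 3 or 4 or any knockout CT9 library (0.0533 to 0.121), and with no filter on low counts (0.19). That of Pcp4l1 was lost without control CT13 replicates 1, 2 or 4, knockout CT13 replicates 1 or 4 or knockout CT9 replicates 2 or 3 (0.0537 to 0.123).

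The next 4 genes by that test did not pass. Rhobtb1, a BTB domain protein, rose in control from 10.7 ± 1.46 to 19.5 ± 2.42 CPM, with a difference of 1.19 (adjusted p = 0.067). Nrg4, a ligand of ERBB4, rose in control from 9 ± 1.18 to 20.3 ± 3.61 CPM (1.17, SE 0.18, edgeR adjusted p = 3.8e-05), with a difference of 1.10 (0.478). Hbegf, the EGF receptor ligand described above, had a difference of 1.79 (0.478). Bhlhe40, the repressor described above, had a change of 0.19 in knockout and a difference of 0.80 (0.574).

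**Figure D5:**
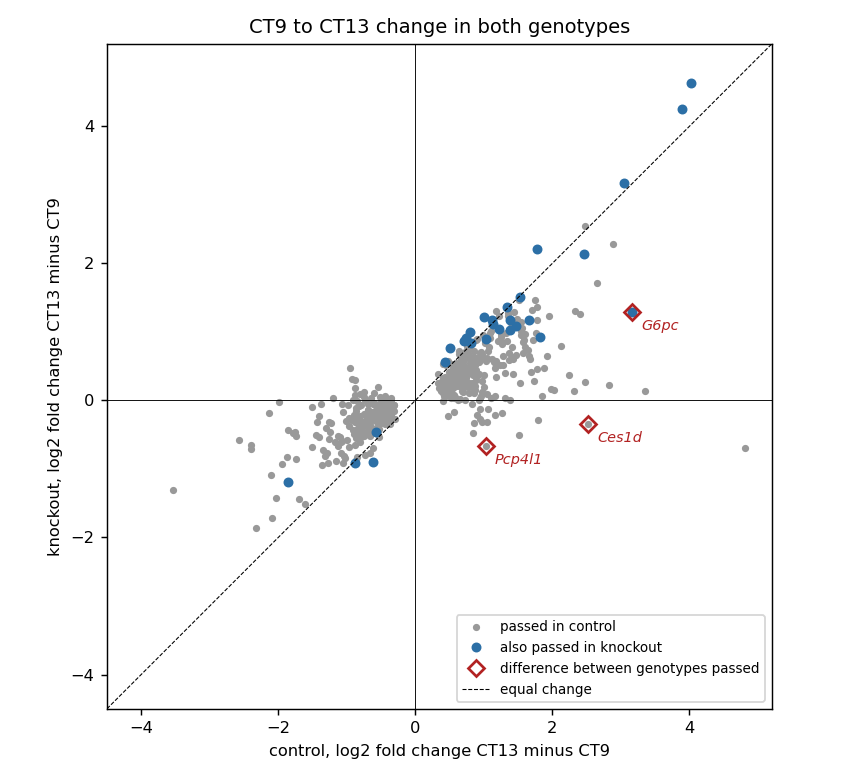
Log2 fold change from CT9 to CT13 in control (x axis) and in knockout (y axis) for the 523 genes that passed in control. Blue points also passed in knockout, red diamonds mark the 3 genes described here whose difference between genotypes passed, and the dashed line marks equal change. Most points share their sign in both genotypes, with Ces1d and Pcp4l1 below 0 in knockout.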

How the data were processed

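RNA-seq libraries of whole jejunum from control (bmal1fl/fl) and knockout (Bmal1iec-/-) mice at 6 circadian times were analysed, 47 with a column of counts. Per the submitters' processing notes, featureCounts 1.4.6 and STAR 2.7.5c were among the tools and mm10 was the build. The deposited values are whole-number counts per gene, not normalised. Annotation release, strand setting and multimapping: not given in the sources used here.

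Genes with at least 10 counts in a library of median size in 3 libraries and 15 counts in all were kept (15646). Counts were scaled with TMM and fitted with edgeR 4.0.16 (robust quasi-likelihood, R 4.3.3) on all 47 libraries with 1 mean per genotype and time, and p-values were Benjamini-Hochberg adjusted over all genes (threshold 0.05). CPM (edgeR cpm function) were taken over kept genes with TMM-scaled library sizes. Values after ± are SD with n = 4 unless stated, and SE is the log2 fold change divided by the root of F. A count of 3 in a library corresponds to 0.495 to 0.565 CPM, which covers counting error only. Gene positions are from an mm10 annotation and promoters from RefSeq GRCm38.p6. DESeq2 1.42.0, limma 3.58.1 (voom), other scalings, no filter, other sets of libraries and leaving out each library were alternatives.

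The genes and lists were chosen with earlier results of these data known. Named were the 12 largest rises and falls among protein-coding genes that passed without overlap at 5 CPM or more, all clock genes, in each other list up to 6 members that passed in each direction and up to 3 that did not, and the 8 with the smallest adjusted p between genotypes. From the list part and the 12 largest, the text gives those it describes and others by count. Some genes are not reported here and were left out of the lists and their counts, but not of the fit or of counts over all genes.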

Additional observations from a re-analysis of the deposited data

Results flagged for a closer look

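Of 304 groups of 4 libraries tested for a library far from the other 3 (Dixon's test), 35 had one. A single group passes this cutoff by chance about 1 time in 20. The groups were those of the genes named here and of the marker sums. Some of these genes were named after their values were seen, and all groups of a time share libraries. The count of 35 therefore cannot be set against chance. In control CT13 replicate 2 the high values were those of Fasn (695 CPM), Acaca (153), Scd1 (1337), Adipoq (72.6), Cfd (320), Fabp4 (243), G0s2 (11.7), Apoa1 (9424) and H2-Aa (392), and the summed adipocyte markers (936). In CT13 replicate 3 the heat shock genes Hsph1 (163 CPM), Hsp90aa1 (319), Hspa8 (1781), Hspd1 (409) and Stip1 (102) were low and Cirbp (24.4) was high. In CT9 replicate 4 Hsph1 (186 CPM), Hsp90aa1 (403), Hspa1b (7.91), Hspd1 (468), Ahsa1 (72.7) and Hspa5 (1220) were high, as were Cyp2c55 (266), Clock (102) and Fbxl21 (2.53). The B cell genes Ms4a1 and Cr2 were high in CT9 replicate 1 (37.1 and 28.2 CPM) and CT13 replicate 4 (15.2 and 9.44 CPM). Single cases were Nr1d1 (192 CPM) and Hspa1a (1.01) in CT9 replicate 1, Sqle (72.8) and Nampt (152) in CT9 replicate 2, Cited2 (38.7) in CT13 replicate 1 and a low Abcc3 (49.3) in CT13 replicate 4.

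The change from CT9 to CT13 differed between genotypes, by the interaction test of edgeR, for Ces1d (control change minus knockout change 2.87, log2), G6pc (1.87) and Pcp4l1 (1.70).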

How the results depend on the processing

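No paired analysis was possible because the titles carry no replicate numbers and those used here only follow the order of deposition. The 288 higher and 235 lower genes became 186 and 131 with no filter on low counts, 683 and 708 without 5 libraries of wide relative log expression, and 79 and 47 without control CT9 replicate 1 and CT13 replicate 4 together. Leaving out 1 control library at a time gave 149 to 341 higher and 98 to 404 lower, with the lowest counts without CT9 replicate 1 and the highest without CT9 replicate 4. The 4 genes that differed between genotypes became 11 without the 5 libraries, 2 without the pair, and 2 to 6 with 1 library left out. The cause was not tested. Totals were 508 with RLE scaling, 520 with upper quartile scaling (61.3% higher, against 55.1%), 659 with DESeq2 and 527 with limma-voom, sharing 505, 488, 517 and 482 genes with the 523. In knockout, 29 higher and 6 lower genes became 17 and 3 with no filter, 66 and 26 with DESeq2, and 113 and 64 without the 5 libraries. None of the 523 changed sign in any alternative. A count of 3 is 0.495 to 0.565 CPM here, so differences in genes near 1 CPM rest on few counts.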

Other observations

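Genes that hypoxia-inducible factors can raise were grouped after their values were seen. Of 22 tested, 10 passed as higher at CT13 (all genes tested, 1.84%) and 0 as lower, with a median log2 fold change of 0.45. In all, 18 were above 0 and 4 below: Pdk1 (-0.30), Ndrg1 (-0.24), Car9 (-0.14) and Slc2a1 (-0.02). Ankrd37, a small ankyrin-repeat protein, changed by 1.72, the collagen prolyl hydroxylases P4ha1 and P4ha2 by 1.60 and 1.42, and the lysyl hydroxylases Plod1 and Plod2 by 0.74 and 0.97. Egln1, the oxygen-sensing hydroxylase of the pathway, changed by 0.77. The other 4 that passed were Bhlhe40, Ddit4, Pgk1 and Higd1a. Of these, Higd1a (0.54) was lost without CT13 replicates 1, 2 or 3 or CT9 replicates 1 or 3 (edgeR adjusted p 0.0519 to 0.136). P4ha2 was lost without CT13 replicate 1 (0.0577) and Plod2 without CT9 replicate 1 (0.0591).

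Defence genes that cytokines can raise in epithelium were also grouped after their values were seen. Of 16, 7 passed as lower (all genes tested, 1.5%) and 0 as higher, with a median of -1.22. In all, 13 were below 0 and 3 above, up to 1.94. Among those above, Lcn2 (1.17) rose without overlap at a low level, 1.08 ± 0.158 to 2.45 ± 1.5 CPM, and Il18 was near 0 (0.04). Beside Socs3, Tifa, Casp4 and Pim1 the 7 were Tlr1 (-1.13), Naip1 (-0.87) and Pigr (-0.72), which carries immunoglobulin A across the epithelium. Naip1 was lost without CT13 replicates 1, 2 or 4 or CT9 replicate 1 (0.0576 to 0.0913). Without CT13 replicate 4 alone the 7 were 4, with Tifa (0.0638), Casp4 (0.061) and Naip1 (0.0824) lost. Of 14 lipid droplet genes grouped in the same way, 9 were above 0 (median 0.34). Of them, 5 passed as higher (all genes tested, 1.84%), Dgat2, Cidec and G0s2 with Fitm2 (0.66) and Abhd5 (0.52). All 7 adipocyte markers were above 0 too (median 2.66), with their highest sum (936 CPM) in CT13 replicate 2, and without that library the 5 were 3, with G0s2 (0.113) and Abhd5 (0.162) lost. Without CT9 replicate 1 they were 3 as well. Fitm2 was lost without CT9 replicate 1 (0.0917), and Abhd5 without CT13 replicates 2 or 4 or CT9 replicates 1 or 3 (0.0734 to 0.162).

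Of 20 pseudogenes that passed, 15 were higher at CT13, where 55.1% of all genes that passed were higher. The pseudogenes tested were not counted. For 11 of the 15 the nearest annotated transcript belonged to a heat shock list gene, with 91.5% to 99.7% identity: 6 were near copies of Hspa8, 3 of Hsp90aa1, 1 of Dnaja1 and 1 of Hspd1. Their log2 fold changes ran from 0.70 to 1.76. Reads of the parent genes could be assigned to such copies, and the handling of multimapping reads is not given in the sources used here.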
